A study of Mus musculus with 12 samples.

Results

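The MEK inhibitor PD0325901 (PD-901) was compared on top of 5-azacitidine in the bone marrow of leukaemic mice: Combo mice received both drugs and 5-azacitidine mice received 5-azacitidine alone. The members are 6 of the 12 libraries of the series, chosen by the agent in the labels, 3 Combo and 3 5-azacitidine libraries from 1 mouse each. All genes with enough counts were tested, 17475 of the 56350 identifiers in the table. All 12 mice carried Shp2E76K/+, an activating allele of the phosphatase gene Ptpn11, together with LysM-Cre, on a C57Bl/6J background, and were 12 to 14 weeks old and of both sexes. Combo mice were gavaged with PD-901 at 5 mg/kg 20 times over 4 weeks. In the same period they were injected into the peritoneum with 5-azacitidine at 5 mg/kg 5 times. The 5-azacitidine mice had the same 5 injections without PD-901. The other libraries were 3 of PD-901 at the same schedule alone and 3 of Vehicle. The labels do not give the sex of single mice or the time between the last dose and harvest, and no group lacks the mutant allele, so every comparison is between leukaemic mice.

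Shp2 passes signals from growth factor receptors to Ras, and Ras activates the kinases Raf, MEK and ERK in turn. ERK switches on its own brakes, the Dusp phosphatases and the Sprouty and Spred proteins, along with transcription factors of the Etv, Fos, Egr and Klf families, and transcripts of these genes are the usual readout of MEK inhibitors. The Shp2 E76K allele keeps this pathway active and drives a disease in mice that models juvenile myelomonocytic leukaemia, in which granulocytes and monocytes accumulate. 5-azacitidine is a cytidine analogue that traps DNA methyltransferases and lowers DNA methylation. LysM-Cre is expressed from the Lyz2 locus in granulocytes, monocytes and macrophages, so lymphoid, erythroid and stromal cells of the same marrow mostly keep the unrecombined allele.

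Total counts were 18433456, 18933766 and 23839253 in the Combo libraries, against 15356919, 16313816 and 23278572 in the 5-azacitidine libraries. Ptpn11 had 131, 163 and 146 CPM (counts scaled to library size, which makes libraries comparable but not genes of different length) in Combo libraries, against 149, 125 and 133 CPM in 5-azacitidine libraries, and its level does not show whether the point mutation was recombined. Lyz2 had 44.9, 55.9 and 1151 CPM in Combo libraries, against 2773, 3389 and 1807 CPM in 5-azacitidine libraries (edgeR adjusted p = 0.499). Combo replicates 1 and 2 and Vehicle replicates 1 and 2, at 172 and 147 CPM, were the 4 libraries lowest in Lyz2. The Cre insertion disrupts the Lyz2 copy it sits in, and the labels do not give the number of copies per mouse. Xist exceeded 100 CPM in none of the 3 Combo libraries and in 1 of the 3 5-azacitidine libraries, replicate 2. It exceeded 100 CPM in PD-901 replicates 2 and 3 and in all 3 Vehicle libraries. On the second principal component of log2 CPM, which held 20% of the variance, 5-azacitidine replicate 1 lay at -33.72. The Combo libraries lay on the same side, nearer to 0, at -19.9, -10.82 and -19.06. The other 5-azacitidine libraries lay at 8.362 and 3.63. On the first component (31.7%) the 5-azacitidine libraries lay at 14.8, -2.055 and 14.73. The Combo libraries lay there at -12.88, -33.36 and 14.44. 5-azacitidine replicate 1 also had the fewest counts and the fewest detected genes (18897) of the 12 libraries.

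In Combo against 5-azacitidine marrow, genes were called lower among ERK output (3 of 24 measured), immediate early (4 of 22), mature neutrophil (6 of 14) and B cell precursor genes (2 of 16), and 0 of these lists' genes were called higher. Fewer genes were called higher, and 10 of these 44 were immunoglobulin segments, 9 of them variable segments. Such segments made up 206 of the 17475 genes tested. The named genes that rose, which leave out these segments, were mixed in kind and led by Podxl and Apol11b. A gene was called when the adjusted p of edgeR's quasi-likelihood test was under 0.05, with Benjamini-Hochberg adjustment over all 17475 genes. In Combo against 5-azacitidine 44 genes were called higher (0.252% of those tested) and 187 were called lower (1.07%), together 231 (1.32%). A change of at least 2-fold was seen for 26 of the higher and 95 of the lower genes, and the median log2 change was 1.25 among the higher and -1.02 among the lower, against 0.00 over all genes tested. For each of the 231 genes the 3 Combo libraries lay entirely on one side of the 3 5-azacitidine libraries. Where such a separation is given for a called gene, it therefore adds nothing to the call. Over all genes such a separation was seen for 1590 genes in the higher (9.1%) and 1667 in the lower direction (9.54%).

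The number of calls rested on single libraries. Without Combo replicate 1, 1 gene was called higher and 1 lower. Without Combo replicate 3 the counts were 2 higher and 9 lower. Without 5-azacitidine replicate 2 they were 0 higher and 1 lower, and without replicate 3 both were 0, with 886 higher and 1204 lower genes at an unadjusted p under 0.05. Leaving out Combo replicate 2 gave 200 higher and 535 lower genes. Leaving out 5-azacitidine replicate 1, which lay on the Combo side of the second principal component, gave 114 and 414. Among the libraries that serve only the estimate of spread, the counts fell to 15 and 61 without Vehicle replicate 2 and to 16 and 85 without PD-901 replicate 2, and they moved to 77 and 290 without Vehicle replicate 3 and to 21 and 128 without PD-901 replicate 3. A fit of only the 6 libraries compared called 2 higher and 2 lower genes, and DESeq2 called 292 and 765. Without the 4 libraries lowest in Lyz2, which leaves a single Combo library whose spread is taken from the other groups, 159 genes were called higher and 122 lower, of which 20 and 51 were among the 44 and 187. A term for Xist above 100 CPM gave 36 and 167 calls, of which 22 and 127 were shared.

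**Figure D1:**
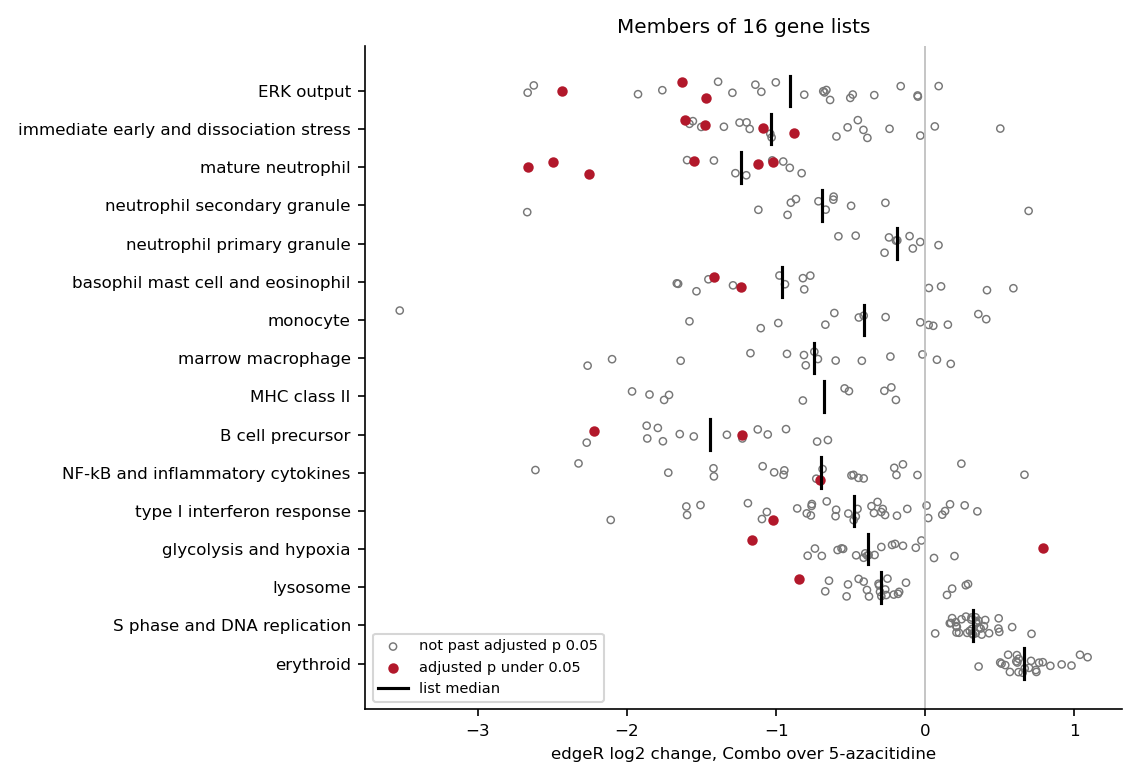
Log2 change in Combo over 5-azacitidine (horizontal axis, edgeR) of each measured member of 16 gene lists, filled where the adjusted p was under 0.05, with the list median as a bar. All 14 mature neutrophil and all 16 B cell precursor genes lie below 0, all 24 erythroid and all 34 S phase genes lie above 0, and no erythroid or S phase gene passed the test.

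Dusp6, the cytoplasmic phosphatase that switches ERK off, had the lowest p of all genes. It had 21.2, 27.9 and 45.6 CPM in Combo libraries, against 116, 233 and 164 CPM in 5-azacitidine libraries. All 3 Combo mice lay below all 3 5-azacitidine mice, a 5.41-fold lower level (log2 change -2.44, SE 0.27; edgeR adjusted p = 0.00614). Leaving out each of the 12 libraries in turn kept Dusp6 past the threshold in 11 fits, with log2 changes of -2.80 to -2.14 and edgeR adjusted p of 0.000366 to 0.0756. In the fit of the 6 libraries alone its edgeR adjusted p was 0.0560. The PD-901 libraries had 225, 180 and 211 CPM of Dusp6, against 209, 173 and 218 CPM in the Vehicle libraries, so those groups overlapped.

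Dusp5, the phosphatase that acts on ERK in the nucleus, had 5.14, 6.99 and 6.08 CPM in Combo libraries, against 13.3, 23.1 and 14.2 CPM in 5-azacitidine libraries (log2 change -1.47, SE 0.24; edgeR adjusted p = 0.0250). Plk3, a polo-like kinase transcribed early after growth factor stimulation, had 12.1, 25.2 and 19.5 CPM in Combo libraries, against 43.6, 75.4 and 57.2 CPM in 5-azacitidine libraries (log2 change -1.63, SE 0.30; edgeR adjusted p = 0.0303). Neither gene overlapped between the groups, and both were called in 8 of the 12 fits that leave out a library.

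The sequences before the start sites of both phosphatase genes are shown because Dusp6 and Dusp5 fell together and ERK reaches many of its target genes through serum response factor and its Ets partners, which bind CArG boxes and neighbouring Ets sites. They are 200 bases long, from the 250th to the 51st base before the RefSeq start, 5′ to 3′, build GRCm38.p6. Dusp5 is at chr19:53528895-53529094 on the + strand and Dusp6 at chr10:99262981-99263180 on the + strand. Capitals mark matches to the CArG box. Searched on both strands as well were the letters CCGGAAG of Ets factors, the letters TGANTCA of AP-1 and the letters TGACGTCA of cAMP-responsive factors.
Dusp5: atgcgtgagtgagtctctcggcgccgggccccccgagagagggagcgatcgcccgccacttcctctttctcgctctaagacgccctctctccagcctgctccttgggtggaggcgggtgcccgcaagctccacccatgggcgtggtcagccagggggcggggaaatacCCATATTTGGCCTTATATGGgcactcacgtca
Dusp6: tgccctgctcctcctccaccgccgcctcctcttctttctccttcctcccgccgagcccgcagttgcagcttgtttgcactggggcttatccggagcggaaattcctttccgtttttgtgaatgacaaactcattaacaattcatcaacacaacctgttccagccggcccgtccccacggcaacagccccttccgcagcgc
The Dusp5 window holds 2 adjacent CArG boxes, whose first bases are 82 and 72 bases before the start, and the Dusp6 window holds none of the 4 motifs. Of 11571 windows of tested genes 0.951% hold a CArG box, 7.14% hold CCGGAAG, 3.77% TGANTCA and 1.3% TGACGTCA. A CArG box is held by 1 of 17 ERK output windows, that of Dusp5. It is held by 2 of 143 windows of genes called lower (1.4%). The windows of Plk3, Klf2 and Klf6, also called lower, hold none of the 4 motifs, and that of Zfp36 holds CCGGAAG. A match is a run of letters and not a measured binding site.

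Of 24 measured genes of ERK output, 3 were called lower (Dusp6, Dusp5 and Plk3), against 1.07% of all genes tested, and 0 higher. A negative log2 change was seen for 23, against 49.7% of all genes tested, and the median was -0.91. In 11 of the 24 all Combo libraries lay below all 5-azacitidine libraries, against 9.54% of all genes tested. Such separation was not particular to this list. It was seen for 11 of 24 lysosomal, 9 of 22 glycolysis and hypoxia and 7 of 22 NF-kB and cytokine genes, with 1, 1 and 0 in the higher direction. The other feedback inhibitors of the ERK output list did not pass the test. Spry4, a Sprouty inhibitor of Ras signalling, had 0.102, 0.408 and 3.59 CPM in Combo libraries, against 3.23, 7.02 and 4.08 CPM in 5-azacitidine libraries (log2 change -1.76, SE 0.81; edgeR adjusted p = 0.308). Its Combo replicate 3 lay within the range of the 5-azacitidine libraries. Spry2, another Sprouty, had 11.7, 9.48 and 10.6 CPM in Combo libraries, against 15.9, 16.2 and 17.3 CPM in 5-azacitidine libraries, without overlap (edgeR adjusted p = 0.0979). Spred1 and Spred2 overlapped between the groups, with log2 changes of -0.50 and -0.34.

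The Etv factors, Ets-family proteins that carry the ERK signal on, did not pass the test. Etv5 had 4.48, 7.85 and 12.9 CPM in Combo libraries, against 16.2, 23.1 and 16.7 CPM in 5-azacitidine libraries (log2 change -1.14, SE 0.35; edgeR adjusted p = 0.117). Etv4 had 0.560, 0.153 and 1.42 CPM in Combo libraries, against 7.32, 3.64 and 3.01 CPM in 5-azacitidine libraries (edgeR adjusted p = 0.104). Both separated the groups, and Etv4 had few counts. Ccnd1, the D-type cyclin that growth signals induce, had 7.28, 11.5 and 17.0 CPM in Combo libraries, against 35.0, 38.5 and 20.7 CPM in 5-azacitidine libraries (edgeR adjusted p = 0.178). Myc was nearly level, with 135, 122 and 138 CPM in Combo libraries, against 135, 116 and 119 CPM in 5-azacitidine libraries (log2 change 0.09, SE 0.15; edgeR adjusted p = 0.849).

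Immediate early genes switch on within minutes of a signal and also when tissue is dissociated. Among 22 of them 4 were called lower (Klf6, Zfp36, Ier2 and Klf2), against 1.07% of all genes tested, and 0 higher. A negative log2 change was seen for 20, against 49.7% of all genes, and the median was -1.04. In the lower direction 11 separated the groups, against 9.54% of all genes. Klf2, a Kruppel-like factor of quiescent leukocytes and endothelium, had 58.4, 83.3 and 65.7 CPM in Combo libraries, against 119, 308 and 206 CPM in 5-azacitidine libraries (log2 change -1.61, SE 0.32; edgeR adjusted p = 0.0336). Zfp36, which destabilises inflammatory mRNAs, had 178, 262 and 177 CPM in Combo libraries, against 337, 771 and 607 CPM in 5-azacitidine libraries (log2 change -1.48, SE 0.29; edgeR adjusted p = 0.0325). In both genes 5-azacitidine replicate 1 was the lowest of its group and still above every Combo library. Ier2 and Klf6 fell by 1.09 and 0.88 on the log2 scale. Fos, Junb and Dusp1 had log2 changes of -1.35, -1.25 and -1.50 with edgeR adjusted p of 0.123, 0.0817 and 0.0970. Egr1, the classical serum response gene, had 17.5, 21.5 and 21.2 CPM in Combo libraries, against 28.3, 77.2 and 32.7 CPM in 5-azacitidine libraries, and in the other mice 283, 124 and 149 CPM in PD-901 libraries, against 53.5, 42.8 and 105 CPM in Vehicle libraries. Egr1 did not pass the test in Combo against 5-azacitidine (edgeR adjusted p = 0.199).

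The components of the pathway itself did not pass the test. Among 32 genes of Shp2 adaptors, Ras proteins, their regulators and the kinases down to ERK, 0 were called by edgeR, 11 had an unadjusted p under 0.05 (15.8% of all genes tested did) and 3 were called lower by DESeq2, with a median log2 change of -0.12. Among 22 genes of the GM-CSF receptor and its STAT5 output, the growth factor pathway to which JMML cells are hypersensitive, 0 were called by edgeR, 9 had an unadjusted p under 0.05 and 4 were called lower by DESeq2, with a median of -0.31.

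The counts of called members in these lists rested on the same libraries as the total. Leaving out 1 library at a time gave 0 to 5 called ERK output genes, with 0 without 5-azacitidine replicate 3, and 0 to 9 immediate early genes, with 0 without Combo replicate 1 or 3 or 5-azacitidine replicate 2 or 3. Without the 4 libraries lowest in Lyz2, 1 gene of each list was called. The mature neutrophil markers described next were lower in the same Combo libraries, and the part of cell composition in the ERK genes was not tested. In bulk marrow fewer cells of a type and less RNA per cell cannot be told apart.

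**Figure D2:**
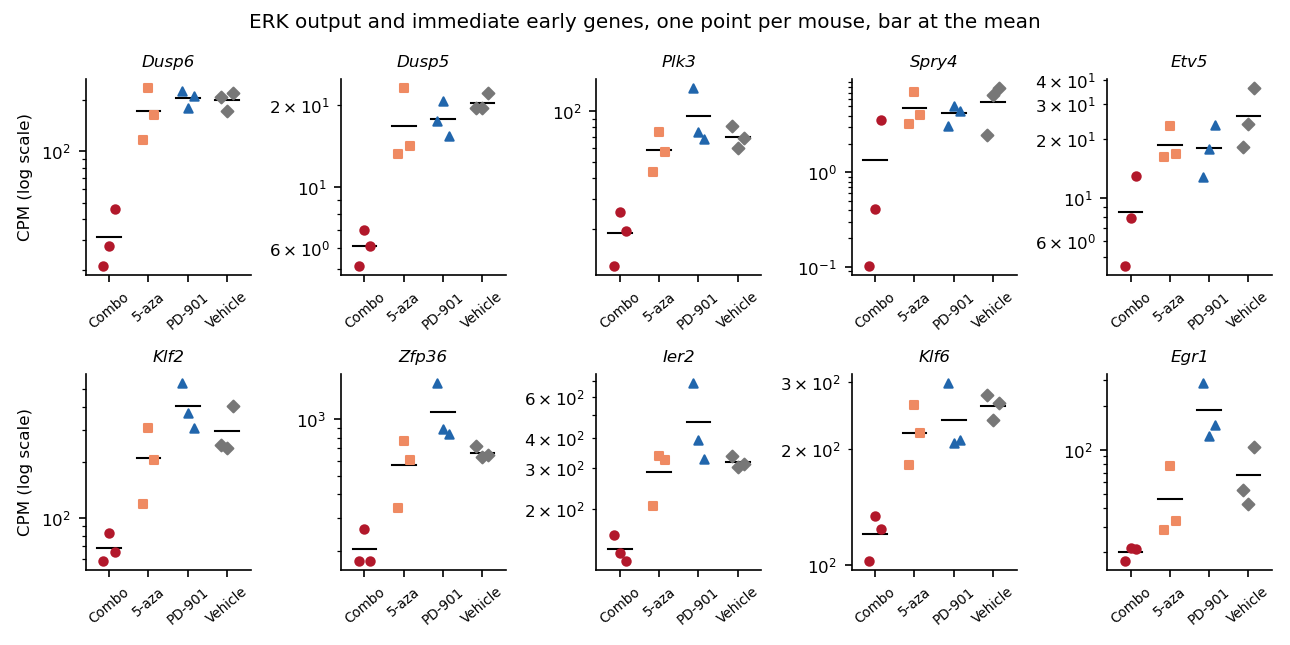
CPM on a log axis of 10 ERK output and immediate early genes in each of the 12 mice (5-aza, 5-azacitidine), with a bar at the group mean. The Combo points of Dusp6 (21.2 to 45.6 CPM) lie below every other mouse, while the 5-azacitidine, PD-901 and Vehicle points share a range of 116 to 233 CPM.

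Of 14 measured mature neutrophil genes 6 were called lower (Slpi, Retnlg, Clec4d, Fpr1, S100a8 and Stfa2l1), against 1.07% of all genes tested, and 0 higher. All 14 had a negative log2 change, against 49.7% of all genes tested, with a median of -1.24. In the lower direction 12 separated the groups, against 9.54% of all genes. Retnlg, a resistin-like protein of late neutrophils, had 353, 501 and 440 CPM in Combo libraries, against 1225, 2335 and 2611 CPM in 5-azacitidine libraries (4.77-fold lower; log2 change -2.25, SE 0.35; edgeR adjusted p = 0.0250). Clec4d, a C-type lectin receptor for fungal and mycobacterial ligands, had 10.3, 23.0 and 10.1 CPM in Combo libraries, against 31.7, 129 and 112 CPM in 5-azacitidine libraries (6.33-fold lower; edgeR adjusted p = 0.0325). Stfa2l1, a stefin-like protease inhibitor, had 2.75, 4.54 and 7.02 CPM in Combo libraries, against 13.4, 38.1 and 29.7 CPM in 5-azacitidine libraries (5.63-fold lower; edgeR adjusted p = 0.0250). In each of these genes 5-azacitidine replicate 1 was the mouse nearest to the Combo mice, and no Combo mouse reached it.

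S100a8, a subunit of calprotectin, had 2671, 3257 and 2983 CPM in Combo libraries, against 5423, 4951 and 7743 CPM in 5-azacitidine libraries (log2 change -1.02, SE 0.24; edgeR adjusted p = 0.0498). Its partner S100a9 had 6173, 7495 and 7004 CPM in Combo libraries, and its log2 change of -0.91 missed the threshold (edgeR adjusted p = 0.0753). Mmp9, the gelatinase of tertiary granules, had 491, 1157 and 836 CPM in Combo libraries, against 1997, 1998 and 2011 CPM in 5-azacitidine libraries (edgeR adjusted p = 0.0502). Cxcr2, the receptor that draws mature neutrophils out of marrow, had 119, 240 and 173 CPM in Combo libraries, against 355, 474 and 397 CPM in 5-azacitidine libraries (edgeR adjusted p = 0.0522). These 3 genes also separated the groups. Cstdc4, a cystatin-domain gene beside the stefins that was named by its size of change, was 5.05-fold lower in Combo (edgeR adjusted p = 0.0250). Reads can be shared between Stfa2l1, Cstdc4 and their near copies, so their single values are uncertain.

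Granule genes made earlier in neutrophil development did not pass the test. In 12 genes of secondary granules, which fill at the myelocyte stage, 0 were called by edgeR in either direction. Of these, 9 had an unadjusted p under 0.05 (15.8% of all genes tested did). DESeq2 called 7 lower, against 765 of all 17475 genes. Of the 12, 11 had a negative log2 change, with a median of -0.69, and 8 separated the groups in the lower direction (9.54% of all genes tested). Lyz2, the gene that the Cre insertion disrupts, is counted among the 11 and the 8. With the term for Xist above 100 CPM 4 of the 12 were called lower. Ltf, lactoferrin, had 5107, 6462 and 5882 CPM in Combo libraries, against 11340, 7680 and 12810 CPM in 5-azacitidine libraries (log2 change -0.87, SE 0.26; edgeR adjusted p = 0.108). In 10 primary granule genes of promyelocytes 0 were called by edgeR, with 1 at an unadjusted p under 0.05 and 1 called lower by DESeq2. Of the 10, 9 had a negative log2 change, and the median was -0.19. Mpo, myeloperoxidase, was the 1 gene with a positive change and overlapped between the groups. It had 4122, 4413 and 3086 CPM in Combo libraries, against 4247, 2576 and 4102 CPM in 5-azacitidine libraries (log2 change 0.09, SE 0.20; edgeR adjusted p = 0.899). The difference between the 3 lists was not tested.

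The summed level of the mature neutrophil list was 10430, 13680 and 12190 CPM in Combo libraries, against 21890, 22750 and 30940 CPM in 5-azacitidine libraries. That of the primary granule list overlapped, at 10630, 10350 and 7224 CPM in Combo libraries and 10470, 7128 and 12240 CPM in 5-azacitidine libraries. Leaving out 1 library at a time gave 0 to 11 called mature neutrophil genes, with 0 without Combo replicate 1 and without 5-azacitidine replicate 2 or 3, 1 without Combo replicate 3 and 3 without PD-901 replicate 2. Without the 4 libraries lowest in Lyz2, 3 were called. The share of mitochondrial counts, which also tracks RNA quality, was 1.78, 1.75 and 1.81% in Combo libraries, against 1.72, 1.39 and 1.24% in 5-azacitidine libraries, without overlap and with 5-azacitidine replicate 1 nearest to Combo. It was 1.01 to 1.29% in the PD-901 and Vehicle libraries. The part of RNA quality in the calls of this list and the others was not tested.

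**Figure D3:**
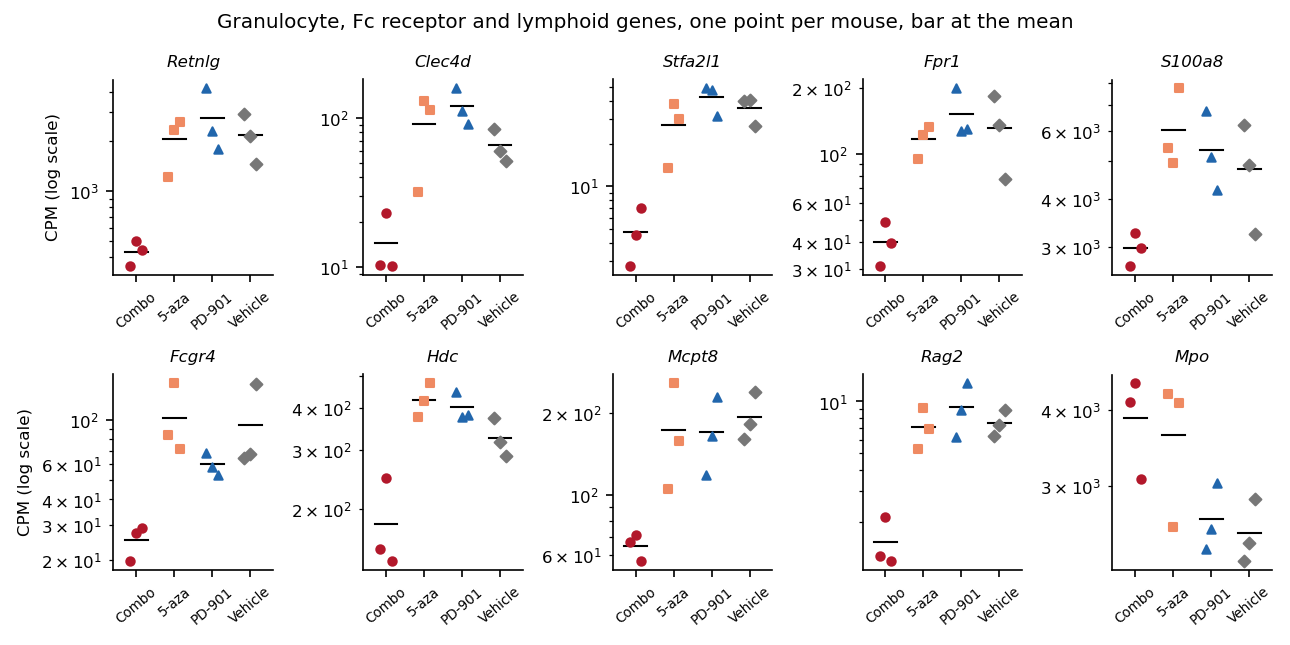
CPM on a log axis of 10 granulocyte, Fc receptor and lymphoid genes in each of the 12 mice (5-aza, 5-azacitidine), with a bar at the group mean. The first 9 panels are of genes called lower, so Combo lies below all 5-azacitidine mice in each. Retnlg has 353 to 501 CPM against 1225 to 2611 CPM, while Mpo, which was not called, overlaps between those groups.

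Surface receptors of granulocytes and monocytes were a further group among the 187 lower genes, picked after their values were seen. Among receptors for IgG, Fcgr4 had 19.7, 27.2 and 28.9 CPM in Combo libraries, against 83.5, 151 and 71.6 CPM in 5-azacitidine libraries (4.04-fold lower; log2 change -2.01, SE 0.34; edgeR adjusted p = 0.0282). Fcgr3 had 141, 159 and 150 CPM in Combo libraries, against 245, 315 and 302 CPM in 5-azacitidine libraries (log2 change -0.94, SE 0.14; edgeR adjusted p = 0.0250). Neither overlapped. The signalling chains that such receptors use fell as well, Fcer1g by 0.83 and Tyrobp by 0.90 on the log2 scale (edgeR adjusted p = 0.0303 for both).

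Some receptors for chemoattractants, picked in the same way, were called lower too, while Cxcr2 was not. C3ar1, the receptor for complement C3a, had 0.560, 1.33 and 1.07 CPM in Combo libraries, against 4.95, 11.03 and 3.61 CPM in 5-azacitidine libraries (6.57-fold lower; log2 change -2.72, SE 0.61; edgeR adjusted p = 0.0443). C5ar1, the receptor for C5a, had 71.8, 108 and 94.9 CPM in Combo libraries, against 185, 219 and 240 CPM in 5-azacitidine libraries (edgeR adjusted p = 0.0303). Fpr1, for formylated bacterial peptides, and Ccr1, for inflammatory chemokines, fell by 1.55 and 1.21 on the log2 scale. All 4 genes separated the groups, as every called gene did. Sirpb1a, an activating paired receptor, was 5.43-fold lower in Combo (edgeR adjusted p = 0.0423), and its near copy Sirpb1b was also called, so reads may be shared between them. Leaving out 5-azacitidine replicate 2 gave log2 changes of -2.10 for C3ar1 and -1.56 for Sirpb1a, neither past the threshold (edgeR adjusted p = 0.137 and 0.112).

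Further signalling and cytoskeletal genes among the 187 lower ones were also picked after their values were seen, apart from those named by the size of their change or by p. The Src-family kinases Fgr and Lyn fell by 0.78 and 0.73 on the log2 scale, the beta-2 integrin gene Itgb2 by 0.73, and Ptpn6, which encodes the inhibitory phosphatase Shp1, by 0.65. Dok2, an adaptor that dampens Ras signalling, had 31.3, 34.0 and 24.9 CPM in Combo libraries, against 63.2, 58.5 and 65.5 CPM in 5-azacitidine libraries (log2 change -1.05, SE 0.17; edgeR adjusted p = 0.0250). S100a6, a calcium-binding protein of motile cells, had 175, 253 and 227 CPM in Combo libraries, against 524, 691 and 683 CPM in 5-azacitidine libraries (log2 change -1.54, SE 0.22; edgeR adjusted p = 0.0250). S100a6 passed the threshold in 9 of the 12 fits that leave out a library and in the fit of the 6 libraries alone (edgeR adjusted p = 0.0466). The myeloid transcription factor genes Spi1, which encodes PU.1, and Cebpd fell by 0.81 and 0.95. Actb, cytoplasmic actin, had 4663, 4962 and 4537 CPM in Combo libraries, against 7761, 7766 and 9258 CPM in 5-azacitidine libraries (log2 change -0.81, SE 0.15; edgeR adjusted p = 0.0303), without overlap.

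Other lower genes were named by the size of their change or by the interaction test. As for every called gene, their groups did not overlap. Scn4b, a sodium channel beta subunit, had 0.407, 1.43 and 0.237 CPM in Combo libraries, against 1.91, 10.3 and 7.92 CPM in 5-azacitidine libraries (9.92-fold lower; edgeR adjusted p = 0.0336). Stab1, a scavenger receptor of macrophages and sinusoidal endothelium, was 4.12-fold lower (edgeR adjusted p = 0.0358). Pla2g7, which degrades platelet-activating factor, had 20.9, 34.7 and 21.4 CPM in Combo libraries, against 37.1, 171 and 101 CPM in 5-azacitidine libraries (edgeR adjusted p = 0.0490), and it was called in 1 of the 12 fits that leave out a library. Zhx2, a homeobox repressor, had 8.24, 8.36 and 7.30 CPM in Combo libraries, against 22.4, 17.9 and 17.2 CPM in 5-azacitidine libraries (log2 change -1.27, SE 0.22; edgeR adjusted p = 0.0273). In the fit without the 4 libraries lowest in Lyz2 the log2 changes of Scn4b and Stab1 were -4.81 and -1.31 and neither passed the test (edgeR adjusted p = 0.0519 and 0.229). Leaving out Combo replicate 2 gave -4.40 for Scn4b, and leaving out Combo replicate 3 gave -2.65 for Stab1.

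Of 16 genes of basophils, mast cells and eosinophils 2 were called lower, against 1.07% of all genes tested, and 0 higher. The median log2 change was -0.96. In the lower direction 9 separated the groups, against 9.54% of all genes tested. Hdc, which makes histamine, had 152, 248 and 140 CPM in Combo libraries, against 377, 421 and 475 CPM in 5-azacitidine libraries (log2 change -1.24, SE 0.19; edgeR adjusted p = 0.0250). Mcpt8, a protease of basophils, had 66.8, 70.8 and 57.0 CPM in Combo libraries, against 105, 257 and 157 CPM in 5-azacitidine libraries (log2 change -1.42, SE 0.29; edgeR adjusted p = 0.0374). Both separated the groups. The eosinophil granule genes Epx and Prg2 had log2 changes of -1.67 and -1.53 (edgeR adjusted p = 0.0672 and 0.0934). Kit, the receptor of mast cells and of early progenitors, had 114, 107 and 104 CPM in Combo libraries, against 85.9, 59.9 and 69.9 CPM in 5-azacitidine libraries (log2 change 0.59, SE 0.14; edgeR adjusted p = 0.0534). Ear1 and Ear2, near copies of eosinophil ribonuclease genes outside the list, were called lower, with reads that may be shared. Leaving out 1 library at a time gave 0 to 5 called lower members.

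Of 16 measured genes of B cell precursors 2 were called lower (Rag2 and Lef1), against 1.07% of all genes tested, and 0 higher. All 16 had a negative log2 change, against 49.7% of all genes tested, and the median was -1.44. In the lower direction 4 separated the groups, against 9.54% of all genes. Rag2, a subunit of the recombinase that assembles antigen receptor genes, had 1.27, 2.14 and 1.18 CPM in Combo libraries, against 5.28, 9.15 and 6.95 CPM in 5-azacitidine libraries (4.66-fold lower; log2 change -2.22, SE 0.36; edgeR adjusted p = 0.0250). Lef1, a transcription factor of pro-B cells, had 6.72, 5.51 and 5.05 CPM in Combo libraries, against 10.1, 16.3 and 14.1 CPM in 5-azacitidine libraries (log2 change -1.23, SE 0.26; edgeR adjusted p = 0.0376). Ebf1, the factor that commits cells to the B lineage, had 3.00, 12.9 and 4.89 CPM in Combo libraries, against 15.2, 26.6 and 22.9 CPM in 5-azacitidine libraries (edgeR adjusted p = 0.0518). Cd79a, the signalling chain of the B cell receptor, overlapped, with Combo replicate 2 at 45.0 CPM above 5-azacitidine replicate 1 at 39.0 CPM (edgeR adjusted p = 0.0664). The number of called members ran from 0 to 9 when 1 library was left out, with 0 without Combo replicate 1 or 3 or 5-azacitidine replicate 2 or 3, and was 5 without the 4 libraries lowest in Lyz2.

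Markers of later lymphoid cells did not pass the test. Among 14 mature B cell genes the median log2 change was -0.33, with 0 called by edgeR, 4 at an unadjusted p under 0.05 and 1 called lower by DESeq2. Among 8 plasma cell genes it was 0.05, with 0 called by edgeR, 3 at an unadjusted p under 0.05 and 1 in each direction by DESeq2. T cell genes (14 measured) and NK and cytotoxic genes (12 measured) had medians of 0.21 and -0.13, with 0 called in either by edgeR or DESeq2 and 1 and 0 at an unadjusted p under 0.05.

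Monocyte and macrophage genes varied between mice of a group. Among 15 monocyte genes 0 were called by edgeR, 5 had an unadjusted p under 0.05 and 3 were called lower by DESeq2, with a median log2 change of -0.41. A negative log2 change was seen for 10 of them (49.7% of all genes tested), and 3 separated the groups in the lower direction (9.54% of all genes). Csf1r, the receptor for the monocyte growth factor, had 147, 189 and 109 CPM in Combo libraries, against 165, 340 and 173 CPM in 5-azacitidine libraries, with overlap. Among 15 marrow macrophage genes 0 were called by edgeR, 9 had an unadjusted p under 0.05 and 2 were called lower by DESeq2, with a median of -0.74. A negative log2 change was seen for 13 of these, and 5 separated the groups in the lower direction. C1qa, a chain of complement C1q, had 16.9, 12.3 and 29.0 CPM in Combo libraries, against 50.6, 150 and 49.8 CPM in 5-azacitidine libraries (edgeR adjusted p = 0.136). Of 10 MHC class II genes 0 were called by edgeR or DESeq2 and 4 had an unadjusted p under 0.05, with a median of -0.68. All 10 had a negative log2 change, and 4 separated the groups in the lower direction. Cd74, the invariant chain, had 272, 298 and 293 CPM in Combo libraries, against 417, 1786 and 702 CPM in 5-azacitidine libraries (edgeR adjusted p = 0.127). C1qa and Cd74 did not overlap between the groups. In C1qa, Cd74 and Csf1r 5-azacitidine replicate 2 stood well above the other mice of its group. Of 16 dendritic cell genes 1 was called lower, Itgax, which encodes CD11c (log2 change -1.66, SE 0.36; edgeR adjusted p = 0.0437), and the median was -0.12.

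The 44 higher genes were led by Podxl, which encodes podocalyxin, a sialomucin of blood progenitors and endothelium. It had 57.4, 25.3 and 19.6 CPM in Combo libraries, against 4.62, 0.627 and 0.973 CPM in 5-azacitidine libraries (16.8-fold higher; log2 change 4.07, SE 0.67; edgeR adjusted p = 0.0273). Apol11b, of the apolipoprotein L family, had 46.3, 21.5 and 24.3 CPM in Combo libraries, against 2.97, 4.26 and 1.67 CPM in 5-azacitidine libraries (10.4-fold higher; log2 change 3.38, SE 0.65; edgeR adjusted p = 0.0326). In both genes the lowest Combo mouse was more than 4 times the highest 5-azacitidine mouse. Adgrg7, an orphan adhesion receptor, had 11.4, 9.43 and 5.33 CPM in Combo libraries, against 0.396, 2.88 and 1.25 CPM in 5-azacitidine libraries (edgeR adjusted p = 0.0425). Arhgdig, a GDP dissociation inhibitor, had 10.3, 4.59 and 4.81 CPM in Combo libraries, against 1.32, 1.32 and 0.834 CPM in 5-azacitidine libraries (edgeR adjusted p = 0.0457). Kcnk5, a background potassium channel, had 12.4, 9.74 and 11.6 CPM in Combo libraries, against 2.31, 3.89 and 3.06 CPM in 5-azacitidine libraries (edgeR adjusted p = 0.0303). Podxl and Adgrg7 had log2 changes of 3.26 and 1.80 without the 4 libraries lowest in Lyz2 and did not pass the test there (edgeR adjusted p = 0.0962 and 0.326). The log2 change of Podxl was 5.38 without 5-azacitidine replicate 1 and 3.46 without Combo replicate 1, where it did not pass (edgeR adjusted p = 0.117). That of Adgrg7 was 3.35 without 5-azacitidine replicate 2 (edgeR adjusted p = 0.0668).

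Genes of stroma and vessels appeared in both directions. Of 18 such genes 2 were called higher, 1 was called lower and the median log2 change was 0.02. Cxcl12, the chemokine by which stromal cells hold blood stem cells in marrow, had 29.2, 56.0 and 27.9 CPM in Combo libraries, against 17.0, 14.4 and 14.7 CPM in 5-azacitidine libraries (2.45-fold higher; log2 change 1.29, SE 0.28; edgeR adjusted p = 0.0391). Pdgfrb, a receptor of pericytes and mesenchymal cells, had 5.04, 6.12 and 4.14 CPM in Combo libraries, against 1.25, 1.57 and 1.34 CPM in 5-azacitidine libraries (3.66-fold higher; log2 change 1.87, SE 0.36; edgeR adjusted p = 0.0303). Vehicle libraries had 41.3, 27.8 and 37.2 CPM of Cxcl12, levels nearer to Combo than to 5-azacitidine. They had 4.56, 2.61 and 3.12 CPM of Pdgfrb, with replicate 1 within the Combo range and replicates 2 and 3 between the Combo and 5-azacitidine ranges. Col1a2, a collagen chain of osteoblasts and fibroblasts, went the other way, with 16.5, 20.9 and 27.02 CPM in Combo libraries, against 44.6, 41.4 and 42.3 CPM in 5-azacitidine libraries (log2 change -0.99, SE 0.20; edgeR adjusted p = 0.0333). Outside the list, Adgrl4 and Jcad, genes of endothelial cells and their junctions, rose by 1.33 and 1.10 on the log2 scale (edgeR adjusted p = 0.0320 and 0.0427). Without the 4 libraries lowest in Lyz2, 0 stromal genes were called, with a log2 change of 0.85 for Cxcl12 and 1.57 for Pdgfrb, and Adgrl4 and Jcad had 0.52 and 1.07 (edgeR adjusted p = 0.635 and 0.174).

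The other named genes that rose had varied functions. Slc25a42, a mitochondrial carrier of coenzyme A, and Dnaja4, a co-chaperone of Hsp70, rose by 1.20 and 1.40 on the log2 scale (edgeR adjusted p = 0.0391 and 0.0404). Pfkm, the muscle form of phosphofructokinase, had 97.2, 61.1 and 102 CPM in Combo libraries, against 47.6, 47.1 and 41.8 CPM in 5-azacitidine libraries (log2 change 0.93, SE 0.19; edgeR adjusted p = 0.0326). Pdk1, a kinase that inhibits pyruvate dehydrogenase, rose by 0.79, and Tbc1d24, of vesicle traffic, by 0.95 (edgeR adjusted p = 0.0336 and 0.0303). BC017158, named by its size of change, rose by 1.06 (edgeR adjusted p = 0.0273). For all 6 genes, as for every gene called higher, the lowest Combo mouse lay above the highest 5-azacitidine mouse.

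**Figure D4:**
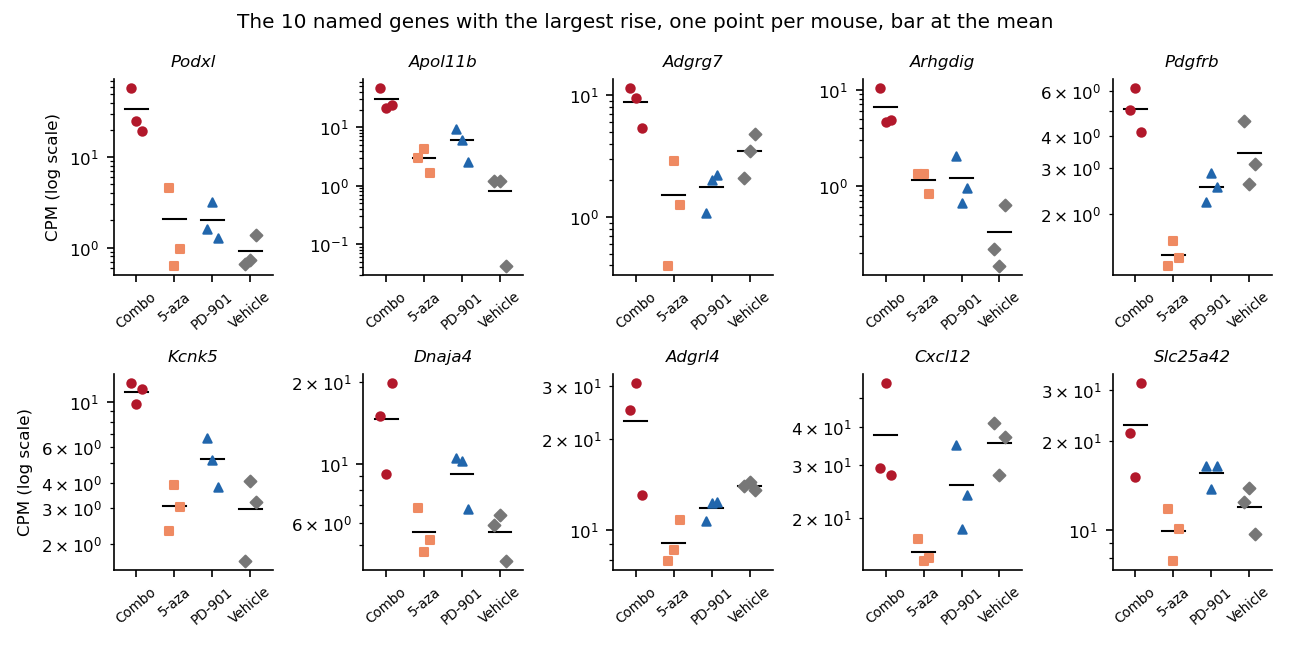
CPM on a log axis of the 10 named genes with the largest rise in Combo over 5-azacitidine, in each of the 12 mice (5-aza, 5-azacitidine), with a bar at the group mean. Podxl and Apol11b are highest in Combo (19.6 to 57.4 and 21.5 to 46.3 CPM), while the Vehicle points of Cxcl12 (27.8 to 41.3 CPM) lie within the Combo range or just below it.

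Of 34 S phase and DNA replication genes 0 were called by edgeR, 18 had an unadjusted p under 0.05 and 6 were called higher by DESeq2. All 34 had a positive log2 change, against 50.3% of all genes tested, with a median of 0.32. In the higher direction 15 separated the groups, against 9.1% of all genes. Some genes outside that list that act in replication were called higher. Atad5, which unloads the replication clamp, had 92.2, 90.4 and 108 CPM in Combo libraries, against 58.1, 54.3 and 56.3 CPM in 5-azacitidine libraries (1.73-fold higher; log2 change 0.79, SE 0.14; edgeR adjusted p = 0.0303). Chaf1b, a subunit of the chromatin assembly factor that follows the fork, rose by 0.71 (SE 0.15; edgeR adjusted p = 0.0357). Picked after their values were seen, Clspn and Wdhd1, which act at the fork, and the helicase gene Recql rose by 0.78, 0.67 and 0.58. Within the list Pole, the leading-strand polymerase, had 85.1, 99.0 and 112 CPM in Combo libraries, against 80.6, 60.6 and 39.9 CPM in 5-azacitidine libraries (log2 change 0.71, SE 0.21; edgeR adjusted p = 0.0979). Among 24 genes of G2 and mitosis 0 were called by edgeR, 1 had an unadjusted p under 0.05 and 1 was called higher by DESeq2, with a median of 0.16. Mki67, the proliferation marker, had 1045, 1163 and 1365 CPM in Combo libraries, against 1232, 746 and 753 CPM in 5-azacitidine libraries, with overlap (edgeR adjusted p = 0.385).

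All 24 erythroid genes had a positive log2 change, with a median of 0.66, but 0 separated the groups and 0 were called by edgeR or DESeq2, with 10 at an unadjusted p under 0.05. When Combo replicate 2 was left out, 15 were called higher, against 0 in each of the other 11 fits that leave out a library. In the list Combo replicate 2 stood apart: the summed level of the list was 9982, 4215 and 12380 CPM in Combo libraries, against 5585, 5667 and 5424 CPM in 5-azacitidine libraries. Gata1, the master regulator of red cells, had 140, 62.7 and 159 CPM in Combo libraries, against 86.3, 82.1 and 77.6 CPM in 5-azacitidine libraries (edgeR adjusted p = 0.303). Without the 4 libraries lowest in Lyz2, Combo replicate 2 among them, 14 erythroid genes were called higher, with only Combo replicate 3 left. Of 15 megakaryocyte and platelet genes 0 were called by edgeR, 2 had an unadjusted p under 0.05 and 1 was called lower by DESeq2, with a median of 0.10. Of 24 stem and progenitor genes 1 was called lower, Spi1, with a median of 0.01.

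**Figure D5:**
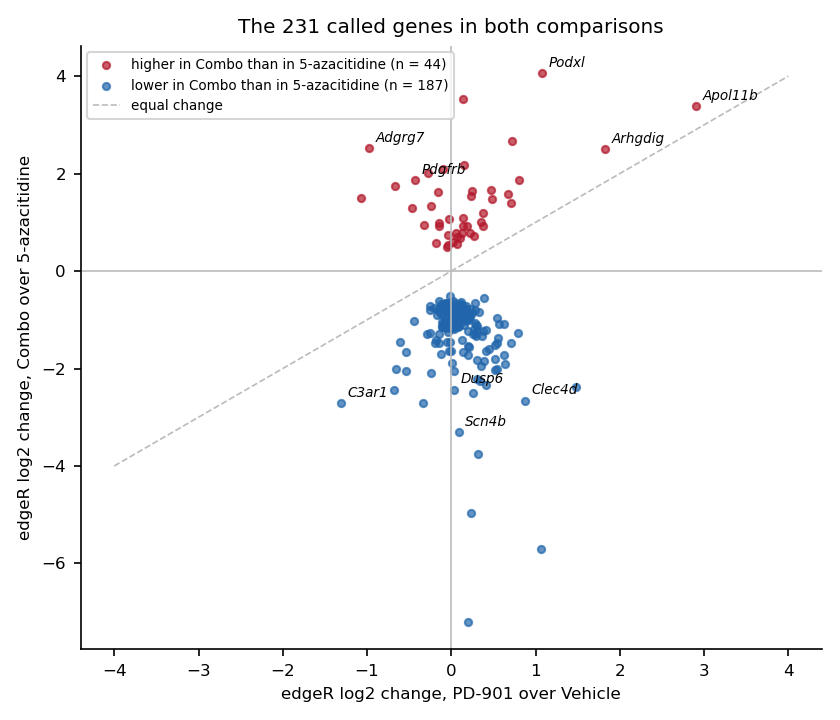
Log2 change (edgeR) in Combo over 5-azacitidine, vertical axis, against that in PD-901 over Vehicle, horizontal axis, for the 231 called genes, with a dashed line of equal change. Most points gather near 0 on the horizontal axis, with medians there of 0.11 for the 44 higher and 0.07 for the 187 lower genes, while Apol11b lies near the dashed line. The genes were chosen by their change on the vertical axis.

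The same drug without 5-azacitidine was measured in PD-901 against Vehicle, which shares no library with Combo against 5-azacitidine. Xist exceeded 100 CPM in every PD-901 and Vehicle library but PD-901 replicate 1. Among the Combo and 5-azacitidine libraries it did so only in 5-azacitidine replicate 2, so the comparisons differ in this as well. In PD-901 against Vehicle 0 genes were called by edgeR (0.0%), with 853 at an unadjusted p under 0.05. Of the 187 genes lower in Combo 70 had a negative log2 change there (37.4%, against 48.4% of all genes tested), with a median of 0.07. Of the 44 higher genes 27 had a positive one (61.4%, against 51.6% of all genes), with a median of 0.11. These genes were chosen by their change in Combo over 5-azacitidine, so a smaller change in PD-901 over Vehicle follows in part from that choice. Immediate early genes had a median of 0.37 in PD-901 over Vehicle, mature neutrophil genes 0.28 and B cell precursor genes 0.47, against 0.01 over all genes, where each list was negative in Combo over 5-azacitidine. For ERK output both medians were negative, -0.91 in Combo over 5-azacitidine and -0.25 in PD-901 over Vehicle. For erythroid genes both were positive, at 0.66 and 0.60. Retnlg, 1 of the genes so chosen, had 4180, 2316 and 1793 CPM in PD-901 libraries, against 2947, 2142 and 1452 CPM in Vehicle libraries, with overlap. Apol11b had 9.25, 6.10 and 2.55 CPM in PD-901 libraries, against 1.21, 1.18 and 0.0422 CPM in Vehicle libraries (log2 change 2.91; edgeR adjusted p = 0.960).

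Whether the effect of PD-901 differed with and without 5-azacitidine was tested as an interaction, the log2 change in Combo over 5-azacitidine minus that in PD-901 over Vehicle. By edgeR 0 genes passed an adjusted p of 0.05 (0.0%), the lowest being 0.0600, and 1871 had an unadjusted p under 0.05. DESeq2 called 285 and limma-voom 4. Dusp6 had an interaction of -2.47 (SE 0.37; edgeR adjusted p = 0.0600). Hsph1, a heat shock chaperone, had 135, 166 and 115 CPM in Combo libraries, against 190, 189 and 179 CPM in 5-azacitidine libraries, and 121, 183 and 183 CPM in PD-901 libraries, against 50.9, 67.3 and 75.6 CPM in Vehicle libraries. Its interaction was -1.75 (SE 0.26; edgeR adjusted p = 0.0600), so the Vehicle mice stood apart and the other 3 groups lay closer together. Zhx2 had the same adjusted p with an interaction of -2.05, and S100a6 and Hdc had -1.73 and -1.54 (edgeR adjusted p = 0.104 for both). In the positive direction the named genes included Phka2, a subunit of phosphorylase kinase, Tbc1d24, Pdgfrb and Cxcl12, with 0.87, 1.27, 2.30 and 1.75. The interaction count was 0 to 150 when 1 library was left out, with 150 without 5-azacitidine replicate 1, 20 without Combo replicate 2, 12 without Vehicle replicate 3 and 1 without Combo replicate 3 or PD-901 replicate 1.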

How the data were processed

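The deposited values were unnormalised read counts, 1 column for each of 12 libraries, beside a gene length column (another unit), which was not used for any value. Per the submitters' processing notes bcl2fastq, STAR 2.7.2a, featureCounts from Subread 1.6.5 and build mm10 were used; the sources used here name neither an annotation release nor a strand setting, so antisense and overlapping genes are uncertain. Per the labels' protocols libraries were made with a low-input kit from RNA whose integrity number exceeded 7, and sequenced paired-end.

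Groups came from the agent label. The fit used edgeR 4.0.16 under R 4.3.3: filterByExpr (minimum count 10, minimum total 15), TMM scaling, and a quasi-likelihood fit of 4 group means to 12 libraries with 8 residual degrees of freedom and a common biological coefficient of variation of 0.328. Tests were two-sided, and SEs follow from the F statistic. Libraries of a group differed by more than counting error, with 20.05 to 72.88 for the chi-square over its degrees of freedom, and none was counted as a copy. The samples are biological replicates per the labels. The p sets the difference between group means against the spread between mice, estimated over all 12 libraries and not only the 6 compared. Alternatives used DESeq2 1.42.0, limma 3.58.1 voom, other scalings and filters, and leaving out each library. The test was tried on simulated counts.

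The members, the 40 gene lists and the tests were chosen with earlier results of these data known. Named genes are, per direction, the 12 with the largest change among called genes without overlap and averaging 5 CPM or more in the group where they were higher, the next 5 by p, up to 5 per list, 13 fixed genes and 5 per direction of the interaction; immunoglobulin segments, unnamed gene models, pseudogenes, sex markers and mitochondrial genes were left out. A few further named genes are not reported here. Promoter sequences are from RefSeq (GRCm38.p6), matched by symbol for 11571 of 17465 symbols; the build of coordinates is that of RefSeq.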

Additional observations from a re-analysis of the deposited data

How the results depend on the processing

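Calls of genes higher, lower and with an interaction were 44, 187 and 0. They were 282, 704 and 400 with no low-count filter, 69, 333 and 0 with a stricter one, 292, 765 and 285 with DESeq2, 28, 146 and 4 with limma-voom, 51, 245 and 0 with DESeq2 size factors in edgeR, 59, 198 and 0 with upper-quartile scaling, and 2 and 2 (higher and lower) in the fit of the 6 libraries compared. Leaving out 1 library at a time gave 0 to 200 higher genes, 0 to 535 lower genes and 0 to 150 interactions. Added after seeing the data, the fit without the 4 libraries lowest in Lyz2 gave 159, 122 and 30, and a term for Xist above 100 CPM gave 36, 167 and 0. The filter changes how many genes are tested (34450 without it, 12026 with the stricter one), and the fit of 6 libraries has fewer samples; the cause of the other moves was not tested. No paired analysis was possible because the labels give no replicate numbers, litters or batches. With 3 mice a group, differences within the spread between mice were not detectable.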

Other observations

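Immunoglobulin variable segments were counted apart from the B cell precursor genes, a grouping chosen after the values were seen. Of 181 segments tested 9 were called higher and 1 lower in Combo against 5-azacitidine (0.252% and 1.07% of all genes tested were). A positive log2 change was seen for 158, against 50.3% of all genes tested, and the median was 0.95. Their summed level was 1623, 2268 and 2329 CPM in Combo libraries, against 1322, 972 and 1145 CPM in 5-azacitidine libraries, without overlap, and 2144, 1724 and 1227 CPM in Vehicle libraries. Ighv1-7, a heavy chain segment, had 17.5, 12.9 and 12.98 CPM in Combo libraries, against 3.83, 3.76 and 2.55 CPM in 5-azacitidine libraries (log2 change 2.10, SE 0.33; edgeR adjusted p = 0.0250). Igkv4-90, a kappa segment, had 6.06, 16.9 and 16.2 CPM in Combo libraries, against 2.37, 2.19 and 1.57 CPM in 5-azacitidine libraries (log2 change 2.68, SE 0.47; edgeR adjusted p = 0.0273). Both were called in 9 of the 12 fits that leave out a library. Jchain, which links secreted antibody of plasma cells, had 634, 651 and 605 CPM in Combo libraries, against 387, 331 and 419 CPM in 5-azacitidine libraries (log2 change 0.73, SE 0.19; edgeR adjusted p = 0.0705). Near-identical segments share reads, so the value of a single segment is uncertain.

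Several further lists held 1 or 2 called genes. Negative log2 changes were seen for 28 of 35 interferon, 20 of 22 NF-kB, 17 of 21 stress response and 20 of 24 lysosomal genes. They were seen for 12 of 23 PI3K and FoxO and 19 of 22 glycolysis and hypoxia genes, against 49.7% of all genes tested. Of 35 interferon response genes Oas3, a sensor of double-stranded RNA, was called lower, with 52.4, 96.1 and 69.2 CPM in Combo libraries, against 140, 183 and 119 CPM in 5-azacitidine libraries (edgeR adjusted p = 0.0357), and the list's median log2 change was -0.48. Of 22 NF-kB and cytokine genes Nfkbia, the inhibitor that NF-kB induces, was called lower (log2 change -0.70; edgeR adjusted p = 0.0391; list median -0.70). Herpud1, of endoplasmic reticulum stress, was the called gene among 21 stress response genes, Ctsd, cathepsin D, among 24 lysosomal genes and Sgk1 among 23 genes of PI3K and FoxO signalling. Their log2 changes were -0.73, -0.85 and -0.89, with list medians of -0.34, -0.30 and -0.16. Of 22 glycolysis and hypoxia genes Pdk1 was called higher and Slc16a3, the lactate exporter, lower, with 70.6, 129 and 95.2 CPM in Combo libraries, against 187, 249 and 224 CPM in 5-azacitidine libraries (edgeR adjusted p = 0.0303), and the median was -0.38.

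Genes tied to the action of 5-azacitidine did not pass the test. Dnmt1, the maintenance DNA methyltransferase that the drug traps, had 411, 532 and 531 CPM in Combo libraries, against 499, 314 and 331 CPM in 5-azacitidine libraries, with overlap (log2 change 0.37, SE 0.18; edgeR adjusted p = 0.362). In 21 genes of the DNA methylation machinery, 25 of uptake and metabolism of the drug and 5 measured germline genes that methylation silences, 0 were called by edgeR, 5, 5 and 2 had an unadjusted p under 0.05, and the medians were 0.14, 0.11 and 0.63. DESeq2 called 1 gene of drug metabolism in each direction and 0 in the other lists of that group. Cdkn1a, the p53-induced cell cycle inhibitor, had 32.4, 28.8 and 35.6 CPM in Combo libraries, against 25.3, 31.7 and 20.3 CPM in 5-azacitidine libraries, with overlap (edgeR adjusted p = 0.504). The remaining lists had 0 genes called by edgeR. Their medians were -0.13 in 20 p53 targets, -0.20 in 17 BCL2 family genes, -0.07 in 19 heat shock chaperones and 0.00 in 20 Polycomb and chromatin regulators, with 5, 6, 5 and 2 genes at an unadjusted p under 0.05 and 1, 2, 2 and 0 called lower by DESeq2. They were 0.15 in 25 ribosome biogenesis genes, -0.06 in 26 ribosomal protein genes, -0.01 in 22 oxidative phosphorylation genes and 0.04 in 25 cholesterol and fatty acid genes, with 3, 0, 1 and 3 at an unadjusted p under 0.05 and 0 called by DESeq2.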
